A study of Mus musculus with 92 samples.

Results

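The 36 genes described here encode the machinery of mitosis, and were chosen by name from a list in 9 roles: cyclin-dependent kinase 1 and its cyclins, the Aurora A and Polo kinases, the chromosomal passenger complex, the spindle assembly checkpoint, centromere and kinetochore proteins, spindle motors and microtubule-associated proteins, central spindle and cytokinesis proteins, cofactors of the anaphase-promoting complex, and the proliferation marker Mki67 with the topoisomerase Top2a. All 36 were found by symbol among the 54532 genes of the count tables. RNA was sequenced from mouse small intestine and from cultures grown from it, after deletion of Eif4g2, a translation initiation factor, or after treatment with A-485, an inhibitor of the acetyltransferases p300 and CBP. There were 92 libraries in 21 groups, with 8652040 to 37611126 reads assigned to genes in each.

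Tissue came from mice carrying tamoxifen-inducible Cre (CreER) under a ubiquitous driver (Rosa26) or an epithelial driver (Vil1). Rosa26 mice with 2 floxed Eif4g2 alleles (flox/flox; crypts n = 4, villi n = 5) were compared with controls that carried 1 floxed allele (flox/+; 5 crypt and 5 villus libraries), all at day 9 after the first tamoxifen dose. Vil1 mice were compared in the same way at 3 months (flox/flox crypts n = 3 and villi n = 6; flox/+ crypts n = 4 and villi n = 4). The controls in tissue therefore carry a deleted allele too. Organoids, epithelial cultures with crypt-like and villus-like regions, were grown in medium with EGF, Noggin and R-spondin. In the first set 3 flox/flox Rosa26 CreER lines received DMSO or 0.5 µM 4-hydroxytamoxifen (4-OHT) and were sampled at day 6. In the second set all cultures received 4-OHT and were flox/flox, flox/+ or CreER with unfloxed Eif4g2 (n = 4 each). Fetal spheroids, the cyst-like cultures of fetal gut, were flox/flox (6 lines) or flox/+ (5 lines), each with DMSO and with 4-OHT. For A-485, 4 organoid lines received DMSO or 3, 5 or 10 µM for 4 days. The labels give 1 of these lines as unfloxed and 3 as flox/flox, none of them treated with 4-OHT; the series text calls the A-485 cultures wild-type. Animals or lines are the replicates throughout. Line S6070 is in both the first organoid set and the A-485 set. Several spheroid lines share a name prefix, also between genotypes, and may not be independent.

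In mitosis, Cdk1 bound to cyclin B drives entry, the spindle checkpoint delays anaphase until kinetochores are attached, and the anaphase-promoting complex with Cdc20 then triggers chromosome separation. In the gut these genes are active in the dividing cells of the crypt and are turned off as cells move onto the villus. Their promoters often hold a CHR element (TTTGAA or TTCGAA), bound by the DREAM and MuvB complexes together with B-MYB (Mybl2) and FOXM1, and CCAAT boxes, bound by NF-Y.

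Promoters of 31 of the 36 genes were found in the RefSeq table for GRCm38.p6, covering 250 bases before to 50 bases after the start; Aurkb, Ccna2, Incenp, Kif20a and Tpx2 had no entry. The 6 stretches below are examples with both motifs before the start, chosen after the matches were seen. They run from 120 bases to 1 base before the start, except for Top2a (150 to 1) and Mki67 (200 to 81). Capitals mark TTTGAA or TTCGAA and CCAAT on either strand, so TTCAAA and ATTGG are their reverse complements. They lie at chr10:69352913-69353032 (minus strand, Cdk1), chr4:118437344-118437463 (minus, Cdc20), chr19:37376262-37376381 (plus, Kif11), chr11:99024190-99024339 (minus, Top2a), chr2:164769809-164769928 (plus, Ube2c) and chr7:135716460-135716579 (minus, Mki67).
Cdk1: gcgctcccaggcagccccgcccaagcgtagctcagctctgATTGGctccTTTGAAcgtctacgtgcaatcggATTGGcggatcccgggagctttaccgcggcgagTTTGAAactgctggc
Cdc20: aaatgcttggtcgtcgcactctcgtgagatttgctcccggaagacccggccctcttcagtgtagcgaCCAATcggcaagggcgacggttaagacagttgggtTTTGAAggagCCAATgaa
Kif11: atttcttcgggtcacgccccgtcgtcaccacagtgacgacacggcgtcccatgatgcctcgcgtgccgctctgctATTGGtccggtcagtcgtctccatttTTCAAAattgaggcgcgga
Top2a: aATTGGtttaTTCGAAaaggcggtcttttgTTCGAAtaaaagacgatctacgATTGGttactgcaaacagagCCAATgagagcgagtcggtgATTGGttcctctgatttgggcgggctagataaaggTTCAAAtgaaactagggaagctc
Ube2c: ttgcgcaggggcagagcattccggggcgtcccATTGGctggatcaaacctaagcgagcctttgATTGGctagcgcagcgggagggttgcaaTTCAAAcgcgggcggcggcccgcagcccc
Mki67: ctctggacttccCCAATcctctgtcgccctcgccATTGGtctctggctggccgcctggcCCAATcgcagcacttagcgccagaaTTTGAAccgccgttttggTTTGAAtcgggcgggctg

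TTTGAA or TTCGAA stood in 25 of the 31 promoters (80.65%), against 21.66% of all 27025 genes with a promoter, 66% of 50 other mitosis genes and 21.21% of 33 DNA replication genes. CCAAT stood in 24 (77.42%, against 41.06% of all), and both motifs in 22 (70.97%, against 8.614%). In the other mitosis genes these shares were 66% and 48%, and in the replication genes 60.61% and 15.15%. GCGGGAA, a form of the E2F site, stood in 0 of the 31 and in 5.288% of all. It stood in 20% of the other mitosis genes and in 42.42% of the replication genes. In the 250 bases before the start alone, the CHR letters stood in 13 of the 31 (41.94%), so many of the matches lie after the annotated start. They stood there in 19.55% of all and in 42% of the other mitosis genes. Birc5, Mad2l1, Nuf2 and Nusap1 had none of these motifs in the window. The matches are letters in a sequence, and binding was not measured.

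**Figure D1:**
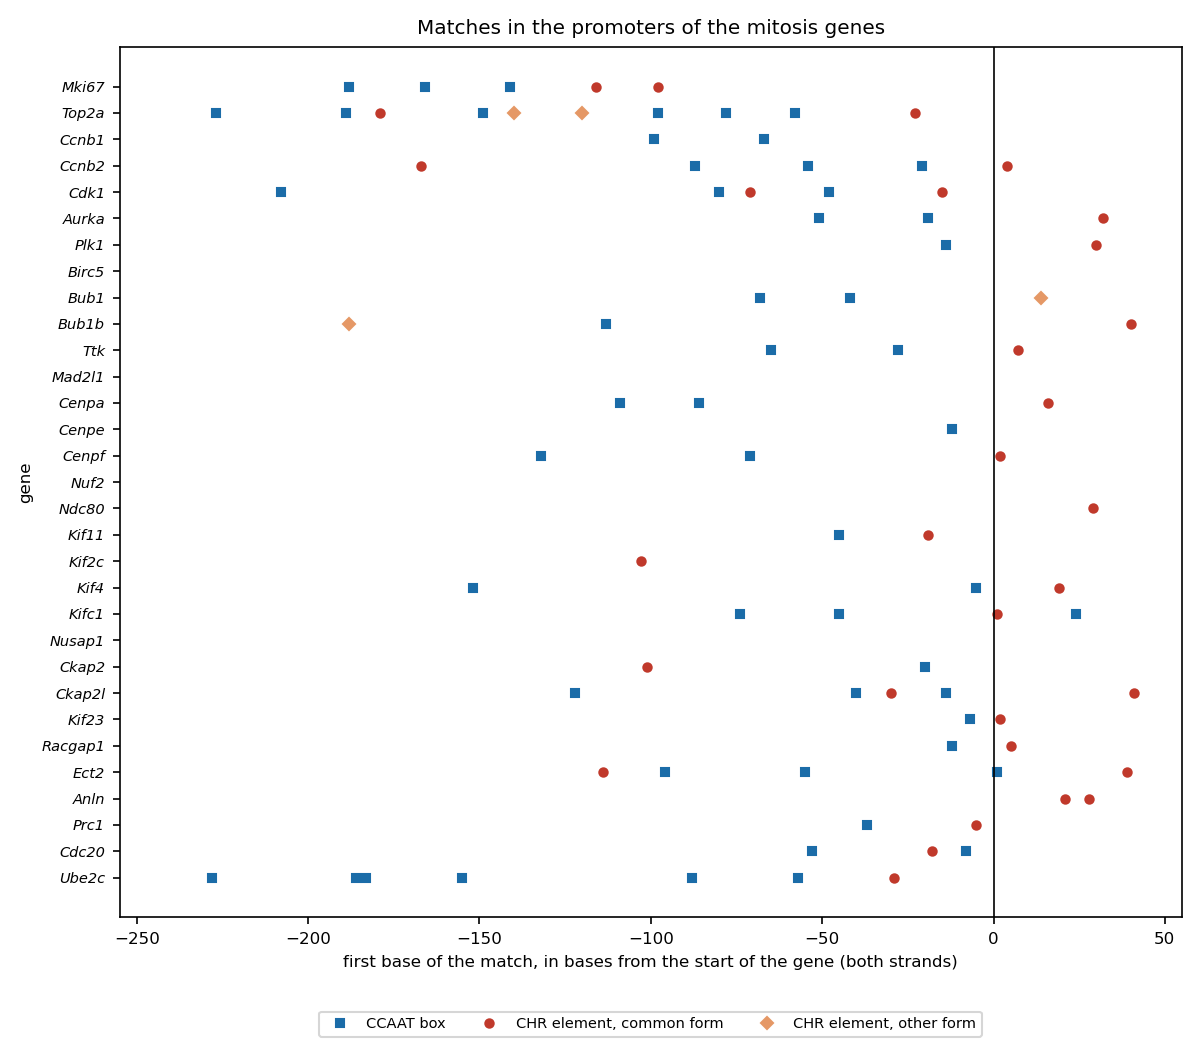
Positions of the motifs in the promoters of the 31 mitosis genes with a RefSeq entry; the horizontal axis is the distance from the annotated start in bases, each line is a gene and each marker a match on either strand. TTTGAA or TTCGAA stood in 25 genes and CCAAT in 24.

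The deletion was visible in the libraries. Eif4g2 levels in CPM (counts per 1e6 reads, scaled by TMM within each set) were 67.9 to 98.3 in flox/flox and 337 to 357 in flox/+ crypts of Rosa26 mice, and 231 to 240 against 437 to 488 in Vil1 crypts. In organoids they were 144 to 148 with 4-OHT and 705 to 794 with DMSO, and in flox/flox spheroids 84.9 to 224 against 706 to 1202. In flox/+ spheroids they were 335 to 646 with 4-OHT and 669 to 1163 with DMSO. A change was called at an adjusted p under 0.05 (edgeR's quasi-likelihood test, Benjamini-Hochberg adjustment over all tested genes), and fold changes are on the log2 scale with their standard error. In bulk tissue, fewer dividing cells and less of each RNA per cell cannot be told apart.

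**Figure D2:**
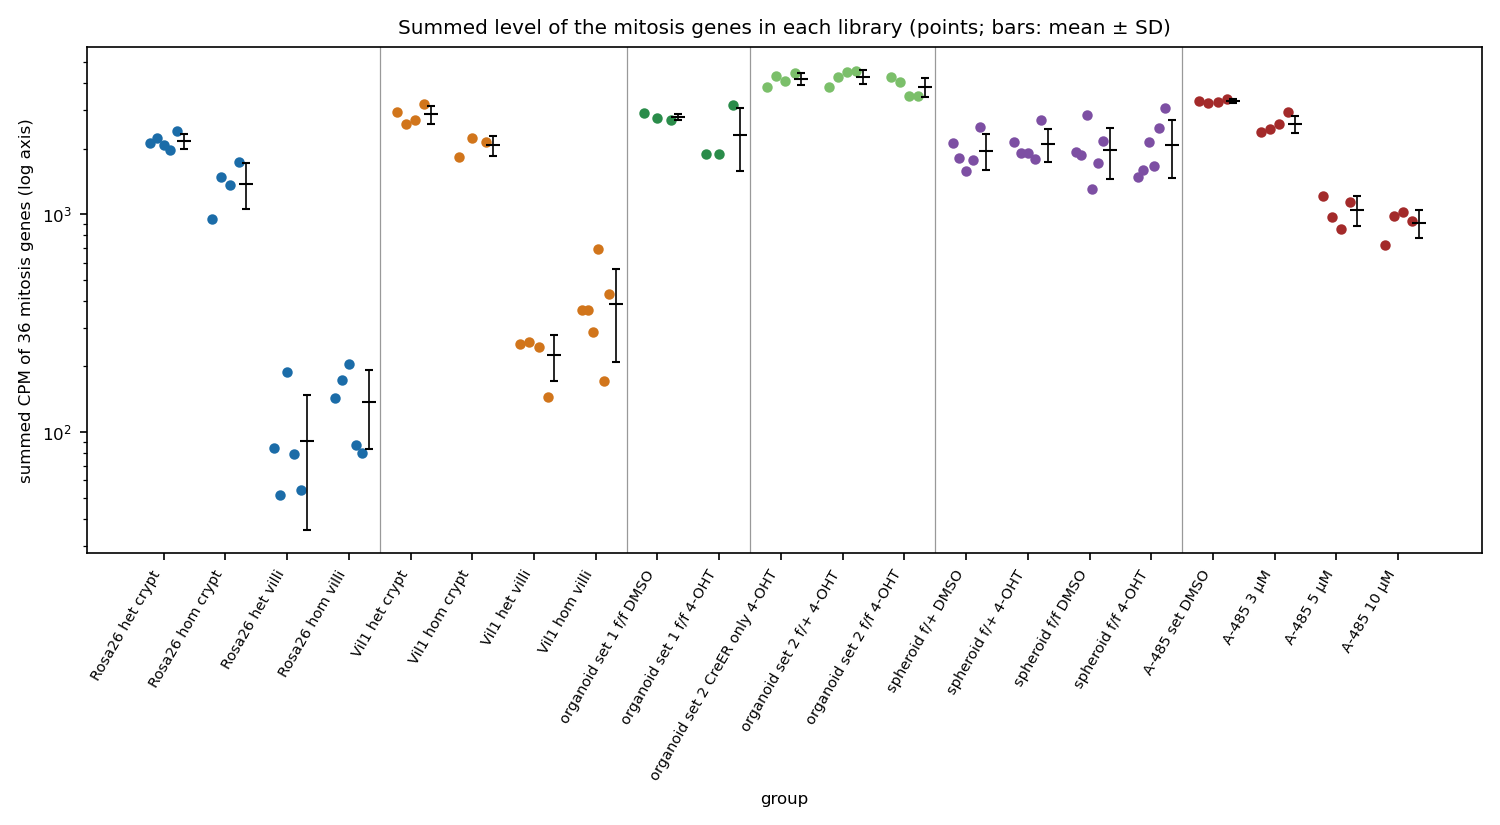
Summed CPM of the 36 mitosis genes in each library, by group; each point is a library, bars are the mean ± SD, and the vertical axis is CPM on a log scale. In the A-485 series the sums were 3227 to 3395 with DMSO and 724 to 1028 at 10 µM, and in villi they lie far below those of crypts.

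Crypts and villi of control mice set the range over which the genes vary. The labels held in the markers: summed enterocyte markers were 1442 to 2454 CPM in Rosa26 flox/+ crypts and 45826 to 67721 in villi. All 36 were higher in flox/+ crypts than villi with both drivers. Of all genes, 40.6% were called higher in crypts with Rosa26 and 35.2% with Vil1. The median log2 difference of the mitosis genes was 4.76 in Rosa26 mice (0.09 over all genes) and 3.73 in Vil1 mice. Ndc80, a kinetochore protein that binds microtubules, had the largest difference in Rosa26 mice: 11.1, 12.8, 11.8, 11.5 and 15.4 CPM in crypts against 0.192, 0.0889, 0.555, 0.107 and 0 in villi (6.08 ± 0.46, edgeR adjusted p = 1.61e-07). Birc5, the survivin subunit of the passenger complex, had the smallest, with 39.1 to 49.5 CPM in crypts and 3.07 to 7.89 in villi (3.00 ± 0.22, adjusted p = 1.12e-07). In Vil1 mice the extremes were Top2a (368 to 491 against 10.5 to 21.8 CPM) and Plk1, the Polo kinase (61.7 to 75.7 against 12.7 to 19.7 CPM). The groups did not overlap for any of these genes. They did not overlap for 66.5% of all genes in Rosa26 and 64% in Vil1 mice. Per kilobase of gene length, the highest levels in Rosa26 flox/+ crypts were those of Cdc20 (44.2 CPM per kb), the cyclin Ccnb2 (43.0) and Ube2c (37.3), and the lowest were Cenpf (2.50) and Ndc80 (1.93).

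In Rosa26 crypts the mitosis genes were lower after deletion. Of 36 genes 21 were called lower and none higher, against 11.6% lower and 8.63% higher of all genes (20.2% either way). The median log2 fold change was −0.56 (0.04 over all genes), and all 36 values were below 0, from Nusap1 at −0.91 to Anln at −0.03. By role, both Aurora A and Polo kinases (Aurka, Plk1), both cofactors of the anaphase-promoting complex (Cdc20, which activates it, and Ube2c, its ubiquitin-conjugating enzyme), and Mki67 with Top2a were called. So were 3 of 4 checkpoint genes, 4 of 8 motors and microtubule-associated proteins, 3 of 6 central spindle genes, 2 of 3 passenger genes, 2 of 4 genes of the Cdk1 group and 1 of 5 centromere and kinetochore genes.

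Nusap1, a microtubule-binding protein of the spindle, was 46.4, 54.3, 47.3, 48.7 and 57.3 CPM in flox/+ and 16.3, 25.6, 27.1 and 35 in flox/flox crypts (−0.91 ± 0.17, edgeR adjusted p = 0.00668). Every flox/flox library lay below every control. In either direction, the groups did not overlap for 25 of 36 mitosis genes and 20.1% of all genes. Cdc20 had the smallest called change: 77.5, 82.1, 83, 77.9 and 91.9 against 43.2, 65.1, 51.5 and 70.9 CPM (−0.46 ± 0.13, edgeR adjusted p = 0.0338). Mki67 was 240, 233, 187, 169 and 239 in flox/+ and 86.7, 112, 138 and 167 in flox/flox crypts (−0.71 ± 0.18, edgeR adjusted p = 0.0221), and its highest flox/flox library lay just under the lowest control. Cdk1 was 50.9 to 58.8 against 23.3, 46.4, 36.9 and 47.9 CPM (−0.46 ± 0.18, edgeR adjusted p = 0.0967). Ccnb1, cyclin B1, was 60.4 to 67 against 28.3, 51.1, 44.7 and 52.6 CPM (−0.44 ± 0.15, edgeR adjusted p = 0.0697). For Cdk1 and Ccnb1 the groups did not overlap, but neither passed the test. In all 5 of these genes the library with the lowest level was flox/flox replicate 1.

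The number of calls in Rosa26 crypts depended on the libraries. It was 9 without flox/flox replicate 4, 13 without flox/+ replicate 2 or replicate 5, and 27 without flox/flox replicate 5. With library totals in place of TMM scaling it was 13. Y-linked transcripts differed between the genotypes too: all 5 flox/+ libraries had 2248 to 3820 such reads, while flox/flox replicate 1 had 2003 and the other 3 had 0. With these transcripts as a covariate 34 were called, all lower. The share of all genes called in these alternative fits is not given here. Without it, a change in the count cannot be read as particular to the mitosis genes. Other cell markers moved with the genotype: summed stem cell markers were 373 to 1279 CPM in flox/flox and 4493 to 7634 in flox/+ crypts, Paneth markers 1630 to 7258 against 11535 to 16176, and mitochondrial reads 13.7 to 25.2% against 6.2 to 12.4%. Immune markers were 125 to 1935 against 205 to 840 CPM, and stromal markers 36 to 2002 against 23 to 818 CPM. Enterocyte markers were 4685 CPM in flox/flox replicate 1, 1579 to 1870 in the other flox/flox and 1442 to 2454 in flox/+ crypts. Flox/flox replicate 1 also had the highest share of mitochondrial reads. Without the 2 flox/flox libraries highest in immune markers, a choice made after seeing the data, 4 mitosis genes were called, all lower. The part of these markers in the result was not tested beyond that.

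In Vil1 crypts 24 of 36 genes were called lower and none higher, against 17.7% lower and 11.6% higher of all genes, with a median of −0.46 (0.01 over all genes). All 5 centromere and kinetochore genes were called, with Cenpf at −0.57 ± 0.12 and Cenpe, a kinetochore motor, at −0.50 ± 0.10. Nusap1 was again the lowest, at 75.2, 84.2, 71.1 and 94.6 CPM in flox/+ and 38.1, 51.4 and 43.6 in flox/flox crypts (−0.87 ± 0.13, edgeR adjusted p = 0.00225). Mki67 was 427, 383, 397 and 454 against 222, 281 and 250 CPM (−0.72 ± 0.11, edgeR adjusted p = 0.00184). Neither gene's groups overlapped. In either direction, the groups did not overlap for 25 of 36 mitosis genes and 39.6% of all genes. Cdk1 and Bub1b had the smallest called changes, and Cdk1 was 57.8, 49.5, 55.7 and 65 against 40.9, 46 and 48.1 CPM (−0.34 ± 0.11, edgeR adjusted p = 0.0434). Ccnb1 was 67.3, 61.7, 68.8 and 80.5 against 55.9, 61.8 and 61.9 CPM, which overlap (−0.21 ± 0.10, edgeR adjusted p = 0.15). Leaving out flox/flox replicate 1 gave 11 calls. Stem markers were 653 to 969 against 5800 to 6352 CPM and mitochondrial reads 30.4 to 40.3% against 17.5 to 30.8%, and their part in the result was not tested.

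The crypts of both drivers, which share no animals, had 18 genes called lower in common (85.7% of the 21 and 75% of the 24). Of all genes 11.6% were called lower in Rosa26 and 17.7% in Vil1 crypts. The share of all genes called lower in both is not given here. The 9 genes called in neither were Anln, Ccnb1, Ckap2, Ect2, Incenp, Kif23, Kif4, Kifc1 and Mad2l1.

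In villi, where levels are low, values lay mostly on the other side of 0. In Rosa26 villi 3 of 35 tested genes were called higher and none lower, against 15% higher and 18.2% lower of all genes, and the median was 0.61 (−0.01 over all genes). Ttk was not tested. Kif23, a kinesin of the central spindle, was 2.5, 1.2, 6.17, 3.01 and 1.17 CPM in flox/+ and 9.11, 14.7, 12.5, 8.6 and 7.78 in flox/flox villi (1.85 ± 0.43, edgeR adjusted p = 0.00738), with no overlap. Bub1b, a checkpoint protein, was 2.04, 1.25, 3.51, 1.77 and 1.17 against 4.38, 3.71, 5.34, 3.1 and 2.92 CPM (0.94 ± 0.32, edgeR adjusted p = 0.0415), and the groups overlapped. The motor Kifc1 rose by 1.43 ± 0.46 (edgeR adjusted p = 0.0332). Groups did not overlap for 1 of 35 mitosis genes and 22.3% of all genes. Mki67 (8.11, 4.58, 19.7, 9.89 and 4.34 against 14.3, 17.4, 27.1, 7.86 and 8.79 CPM) and Cdk1 (0.534 to 3.88 against 0.823 to 5.93 CPM) overlapped and were not called. Ccnb1 (0.96) was not called either. Without flox/+ replicate 3, the control villus library highest in these genes, 19 were called. Only 1 was called without flox/+ replicate 1, 2, 4 or 5 or without flox/flox replicate 2 or 3, and 5 without flox/flox replicate 5. Y-linked reads were 0 in flox/flox replicates 3, 4 and 5 and 1316 to 2362 in the other 7 libraries; with them as a covariate 2 were called.

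In Vil1 villi 11 of 36 were called higher and 1 lower, against 20.9% higher and 21.6% lower of all genes, with a median of 0.79 (0.05 over all genes). Kif23 was again the largest, at 12.8, 10.6, 10.3 and 4.4 CPM in flox/+ and 25.7, 42.6 (median) and 55.3 in flox/flox villi (2.14 ± 0.29, edgeR adjusted p = 0.000104). All 6 flox/flox libraries lay above the 4 controls. Groups did not overlap for 1 of 36 mitosis genes and 30% of all genes. Plk1 was the gene called lower, at 12.7, 19.7, 18 and 13.9 in flox/+ and 5.11 to 16.9 CPM in flox/flox (−0.72 ± 0.26, edgeR adjusted p = 0.0395), with overlap. Mki67 was 16.5 to 42.4 against 25.6 to 108 CPM and was not called. Cdk1 (1.09) and Ccnb1 (0.65) were not called either. Counts ran from 1 without flox/+ replicate 4, the control villus library with the lowest sum, to 20 without flox/flox replicate 5, and were 5 or 7 without flox/+ replicate 1 or 2 and 5 without flox/flox replicate 2, 4 or 6. The 3 genes called in Rosa26 villi, Bub1b, Kif23 and Kifc1, were all among the 11 (27.3%). Of all genes 15% were called higher in Rosa26 and 20.9% in Vil1 villi, and the share in both is not given here. Summed immune markers had medians of 385 CPM in flox/flox and 629 in flox/+ villi of Rosa26 mice, and 213 and 941 in Vil1 mice. Stem markers in Vil1 villi were 378 CPM in flox/flox replicate 4, 100 to 181 in the other flox/flox and 126 to 276 in flox/+ libraries. Flox/flox replicate 4 also had the highest sum of the mitosis genes, 695 CPM against 172 to 429 in the other flox/flox. In Rosa26 villi stem markers were 110 to 143 in flox/flox and 111 to 182 CPM in flox/+. The part of these markers was not tested.

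**Figure D3:**
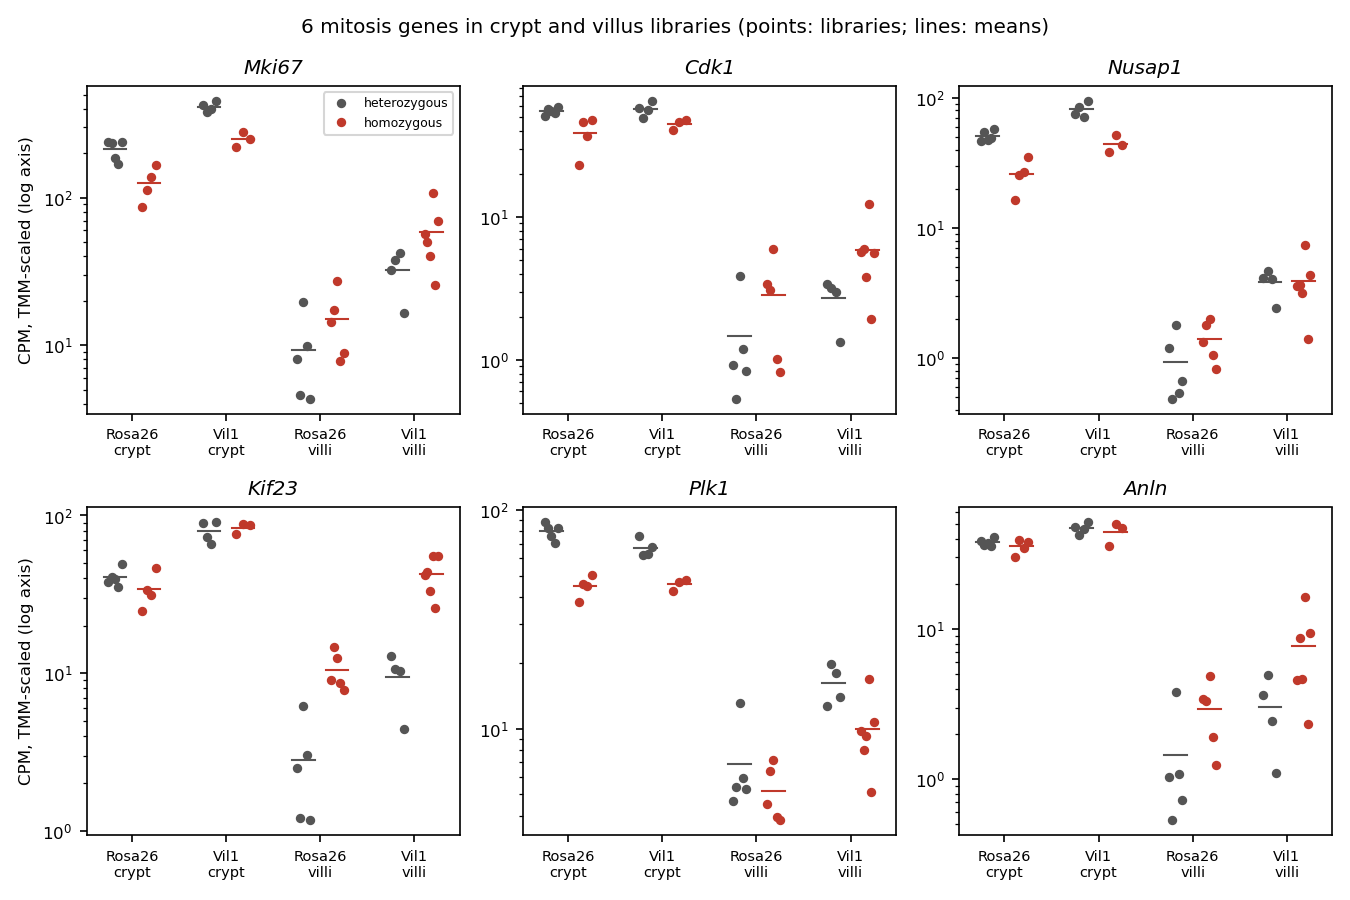
CPM of mitosis genes in each crypt and villus library of the Rosa26 and Vil1 mice; points are libraries, coloured by genotype (homozygous, flox/flox; heterozygous, flox/+), short lines are means and the vertical axis is CPM on a log scale. Nusap1 in Rosa26 crypts was 16.3 to 35 in flox/flox against 46.4 to 57.3 in flox/+, and Kif23 in villi was higher in every flox/flox library than in any control.

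The difference between the crypt and villus effects was tested as an interaction. In Rosa26 mice 8 genes differed, all with a lower effect in crypts (6.68% of all genes), including Ndc80 (−2.52 ± 0.66, edgeR adjusted p = 0.0226) and Aurka (−1.05 ± 0.22, edgeR adjusted p = 0.00775). In Vil1 mice 12 differed, all in that direction (9.38% of all genes), from Kif23 (−2.09 ± 0.38, edgeR adjusted p = 0.00324) to Birc5 (−0.78 ± 0.25, edgeR adjusted p = 0.0442). Most crypts and villi shared animals, and with the animal as a block these counts were 2 and 21. Rosa26 flox/flox villus replicate 2 and Vil1 flox/flox villus replicates 3, 5 and 6 had no crypt library. The Rosa26 count was 5 without flox/flox crypt replicate 1, 13 without flox/flox villus replicate 5 and 30 without flox/+ villus replicate 3. The Vil1 count was 24 without flox/flox villus replicate 5 and 1, 3 and 2 without flox/flox crypt replicate 1, 2 and 3. It was 3 without flox/+ crypt replicate 1 or 4 or flox/+ villus replicate 4, 5 without flox/+ villus replicate 1 or flox/flox villus replicate 6, and 7 without flox/+ crypt replicate 3.

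In the first organoid set 1 of 36 genes was called lower and 1 higher, against 17.2% lower and 18.2% higher of all genes, and the median was −0.31 (0.03 over all genes). Nusap1 was 52.1, 48.7 and 43.7 CPM with DMSO and 28.6, 29.7 and 38.1 with 4-OHT (−0.59 ± 0.13, edgeR adjusted p = 0.0133). Anln was 55.3, 52.6 and 47.3 against 71.9, 62.8 and 88.7 CPM (0.52 ± 0.14, edgeR adjusted p = 0.0222). The groups overlapped for neither gene. They did not overlap for 6 of 36 mitosis genes and 50.6% of all genes. Mki67 was 309, 314 and 299 with DMSO and 170, 186 and 318 with 4-OHT; Cdk1 was 71.7, 72.7 and 63.3 against 53.1, 54.9 and 82.7; Ccnb1 was 83.7, 78.4 and 79.2 against 51, 54.3 and 101 CPM. None of these was called (edgeR adjusted p = 0.163, 0.625 and 0.516). In line S2080, the third value in each group, these 3 genes were higher with 4-OHT than with DMSO, and in the other 2 lines they were lower. With the line as a block 7 genes were called lower and 1 higher. Without S2080 in both groups, a choice made after seeing the data, 31 were called lower and 1 higher, with Mki67 at −0.80 and Cdk1 at −0.42, and without its 4-OHT library alone 32 were called. Without 4-OHT or DMSO replicate 1 no gene was called, and without DMSO replicate 2 or 3, 1 was. Stem markers were 699 to 764 with 4-OHT and 2069 to 2421 CPM with DMSO.

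In the second organoid set, where all cultures had 4-OHT, 16 of 36 genes were called lower and 2 higher in flox/flox than in flox/+, against 24.3% lower and 22.6% higher of all genes (46.8% either way). The median was −0.18. Ttk, a checkpoint kinase, was the lowest, at 33.7, 42.7, 41.2 and 40.8 CPM in flox/+, 40.5, 39.7, 38.2 and 43.5 in CreER only and 30.9, 28.6, 24.6 and 23 in flox/flox cultures (−0.57 ± 0.10, edgeR adjusted p = 0.000263). The 2 genes called higher were Anln (62.8, 67.2, 70.5 and 62.3 in flox/+ against 86.7, 86.5, 91.7 and 77.9 CPM in flox/flox; 0.38 ± 0.06, edgeR adjusted p = 0.000151) and Kif23 (109, 117, 123 and 131 against 147, 142, 131 and 131 CPM; 0.20 ± 0.06, edgeR adjusted p = 0.0128). Every flox/flox value of Ttk and Anln lay outside the flox/+ range. Groups did not overlap for 9 of 36 mitosis genes and 42% of all genes. Against CreER only, 11 were called lower and 2 higher (23.5% and 21.9% of all genes, 45.3% either way), with Ttk at −0.60, Anln at 0.42 and Kif23 at 0.17; both comparisons share the flox/flox libraries. Summed stem markers were 2735 to 3997 CPM in flox/flox and 7640 to 10029 in flox/+ cultures, and Paneth markers 1081 to 1394 against 3247 to 4430; their part in the result was not tested. Between flox/+ and CreER only, edgeR called 0 of 36 (0.113% of all genes, 0.0633% lower and 0.0492% higher) and DESeq2 0; 3 genes, Cdk1, Birc5 and Cenpa, had an unadjusted p under 0.05.

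In flox/flox spheroids 4-OHT changed few mitosis genes: 1 of 36 was called higher and none lower, against 9.01% higher and 10% lower of all genes, and the median was 0.04. That gene was Anln, at 26.6, 34.4 (median) and 46.5 CPM with DMSO and 38.8, 61.3 and 122 with 4-OHT, with overlap (0.95 ± 0.20, edgeR adjusted p = 0.00231). The same lines received DMSO and 4-OHT. With the line as a block 4 were called, Anln and Kif23 higher and Plk1 and Birc5 lower. That fit called 42.7% of all genes. Without 4-OHT replicate 5 or DMSO replicate 4 or 6, 2 were called.

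In flox/+ spheroids edgeR called 0 of 36 mitosis genes and 0% of all genes, DESeq2 called 0, and no mitosis gene had an unadjusted p under 0.05. This count of 0 has little weight, because the model did not call Eif4g2 either, although its level fell in all 5 lines (−0.81 ± 0.24, edgeR adjusted p = 1). Only 0.0998% of genes had an unadjusted p under 0.05. The lines differed from each other in the same way in both treatments. The deviations of a line's DMSO and 4-OHT libraries from their group means correlated at 0.622 to 0.839 across genes. A fit to the flox/+ libraries alone with the line as a block, added after seeing the data, called Eif4g2 (−0.80 ± 0.08, edgeR adjusted p = 0.0159) and no other gene. In that fit 7.2% of genes and 5 mitosis genes, Cdc20, Anln, Prc1, Cenpa and Ckap2, had an unadjusted p under 0.05. Anln was 34.9, 35.4, 31.2, 34.2 and 44.3 CPM with DMSO and 42.9, 49.4, 47.6, 41.9 and 47.2 with 4-OHT.

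Between the genotypes, edgeR and DESeq2 called 0 of 36 with 4-OHT (10.5% of all genes by edgeR, 6.13% lower) and 0 with DMSO (0%); Nusap1 and Anln had an unadjusted p under 0.05 with 4-OHT and none had with DMSO. Without the flox/flox 4-OHT replicate 1, 1 was called with 4-OHT. The interaction of genotype and treatment called 0 by both tools (1.62% of all genes by edgeR), and no mitosis gene reached an unadjusted p under 0.05. A line block gave 1 call.

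Flox/+ spheroids had lower levels than flox/+ organoids, both with 4-OHT: 29 of 36 genes were called lower and none higher, against 22.8% lower and 25.1% higher of all genes, with a median of −0.79. The 2 culture types came from separate lines, and line and culture type cannot be told apart. Mki67 was 57.2, 37.4, 39.8, 114 and 355 CPM in spheroids and 425.5, 462.6, 461.4 and 493.02 in organoids (−1.93 ± 0.66, edgeR adjusted p = 0.0381). The chromosome-bound motor Kif4 was 20.6, 14.5, 16.4, 14.9 and 28.4 against 64.6, 62.7, 66.9 and 71.9 CPM (−1.81 ± 0.20, edgeR adjusted p = 0.000132). Anln had the smallest called difference (−0.40 ± 0.09, edgeR adjusted p = 0.00409). Spheroid replicate 5 was the highest for Mki67 and Kif4, and neither gene's groups overlapped. Groups did not overlap for 28 of 36 mitosis genes and 44.1% of all genes. Stem markers were 8708 CPM in spheroid replicate 5, 3432 in replicate 4 and 1083 to 1829 in the other spheroids. Paneth markers were 2841, 1460 and 87 to 188 CPM in that order. In the organoids, scaled in their own set, these sums were 7640 to 10029 and 3247 to 4430 CPM. Without spheroid replicates 4 and 5, a choice made after seeing the data, 31 genes were called lower and 1 higher. The share of all genes called in that fit is not given here.

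A-485 at 3 µM lowered 6 of 36 genes and raised none, against 8.42% lower and 10.8% higher of all genes, with a median of −0.35 (0.00 over all genes). Kif2c, a microtubule-depolymerising kinesin, was 41.6, 35.3, 38.3 and 39.5 CPM with DMSO and 25.8, 29.2, 29.6 and 11.5 at 3 µM (−0.69 ± 0.23, edgeR adjusted p = 0.0444). Racgap1, the partner of Kif23 in the central spindle, was 137, 115, 116 and 142 against 78.2, 102, 89.4 and 104 CPM (−0.45 ± 0.12, edgeR adjusted p = 0.0133). The groups did not overlap for either. They did not overlap for 17 of 36 mitosis genes and 26.7% of all genes. Aurka, Ckap2l, Ccnb2 and Ube2c were the others called. Mki67 (−0.40), Cdk1 (−0.26) and Ccnb1 (−0.42) were not called. The same 4 lines received every dose, and with the line as a block 11 were called. Among the 3 flox/flox lines alone none was called, and with library totals in place of TMM scaling 1 was. The count was 2 without 3 µM replicate 1 or DMSO replicate 1 or 3, and 3 without 3 µM replicate 2 or DMSO replicate 2 or 4.

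At 5 µM all 36 genes were called lower, against 25.1% lower and 24.4% higher of all genes, with a median of −1.68 (−0.02 over all genes). Bub1b fell most, from 84, 85.4, 86 and 84.7 CPM with DMSO to 21.8, 19.4, 14.7 and 11.9 (−2.32 ± 0.18, edgeR adjusted p = 1.78e-08). Anln fell least, from 57.7, 54.9, 59.5 and 54.4 to 37.5, 25.3, 24.2 and 32.5 CPM (−0.92 ± 0.20, edgeR adjusted p = 0.000903). Mki67 went from 291, 314, 388 and 339 to 88.8, 79.8, 76.5 and 148 CPM. Cdk1 went from 115, 116, 106 and 111 to 40.9, 39.6, 36.3 and 36.1 CPM, and Ccnb1 from 134, 125, 107 and 128 to 51.8, 33.4, 28.5 and 46.5 CPM. In these 5 genes every treated library lay below every DMSO library. This held for 36 of 36 mitosis genes and for 27.2% of all genes. From 3 to 5 µM all 36 were called lower (13% of all genes lower and 11.5% higher), with a median of −1.33.

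At 10 µM 35 of 36 were called lower, against 32.6% lower and 29.4% higher of all genes, with a median of −2.04 (−0.05 over all genes). Bub1b was 10.7, 13.6, 13 and 7.65 CPM (−2.91 ± 0.19, edgeR adjusted p = 4.62e-10). Cdc20 had the smallest called fall, from 102, 94.1, 99.7 and 96.4 to 49.7, 80.6, 65.3 and 49.6 CPM (−0.68 ± 0.18, edgeR adjusted p = 0.00294). Anln was 30.5, 39.8, 43.1 and 56.3 CPM, overlapped with DMSO and was not called (−0.42 ± 0.20, edgeR adjusted p = 0.0739). Mki67 was 34.9, 58.1, 77.1 and 81.6 CPM (−2.41 ± 0.27, edgeR adjusted p = 8.19e-07), and Ccnb1 was 33, 42, 35.5 and 41.2 CPM (−1.70 ± 0.16, edgeR adjusted p = 4.24e-08). By role the median change ran from −1.12 for the anaphase-promoting complex cofactors to −2.32 for the passenger complex.

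From 5 to 10 µM, 4 genes were called lower and 1 higher (12.4% and 6.44% of all genes). Aurkb, the kinase of the passenger complex, went from 27.4, 19, 17.8 and 15.1 to 9.68, 15, 13.6 and 5.76 CPM (−0.84 ± 0.23, edgeR adjusted p = 0.0156); every line fell, and the ranges of the doses nearly met. Ttk, Ckap2l and Bub1b were the others. Cdk1 was higher at 10 than at 5 µM, at 48.1, 50, 57.7 and 42.8 CPM (0.38 ± 0.11, edgeR adjusted p = 0.0184), while still below DMSO (−1.17 ± 0.11). With the line as a block 8 were called lower and 2 higher, and with the libraries of the 2 doses alone 2 were called lower. Among the 3 flox/flox lines alone none was called lower and 2 higher. Stem markers were 8345 to 9754 CPM with DMSO, 2134 to 3396 at 3 µM, 1072 to 1110 at 5 µM and 593 to 672 at 10 µM; their part in these results was not tested. Immune markers were at or below 2.55 CPM in all A-485 and matched DMSO libraries.

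**Figure D4:**
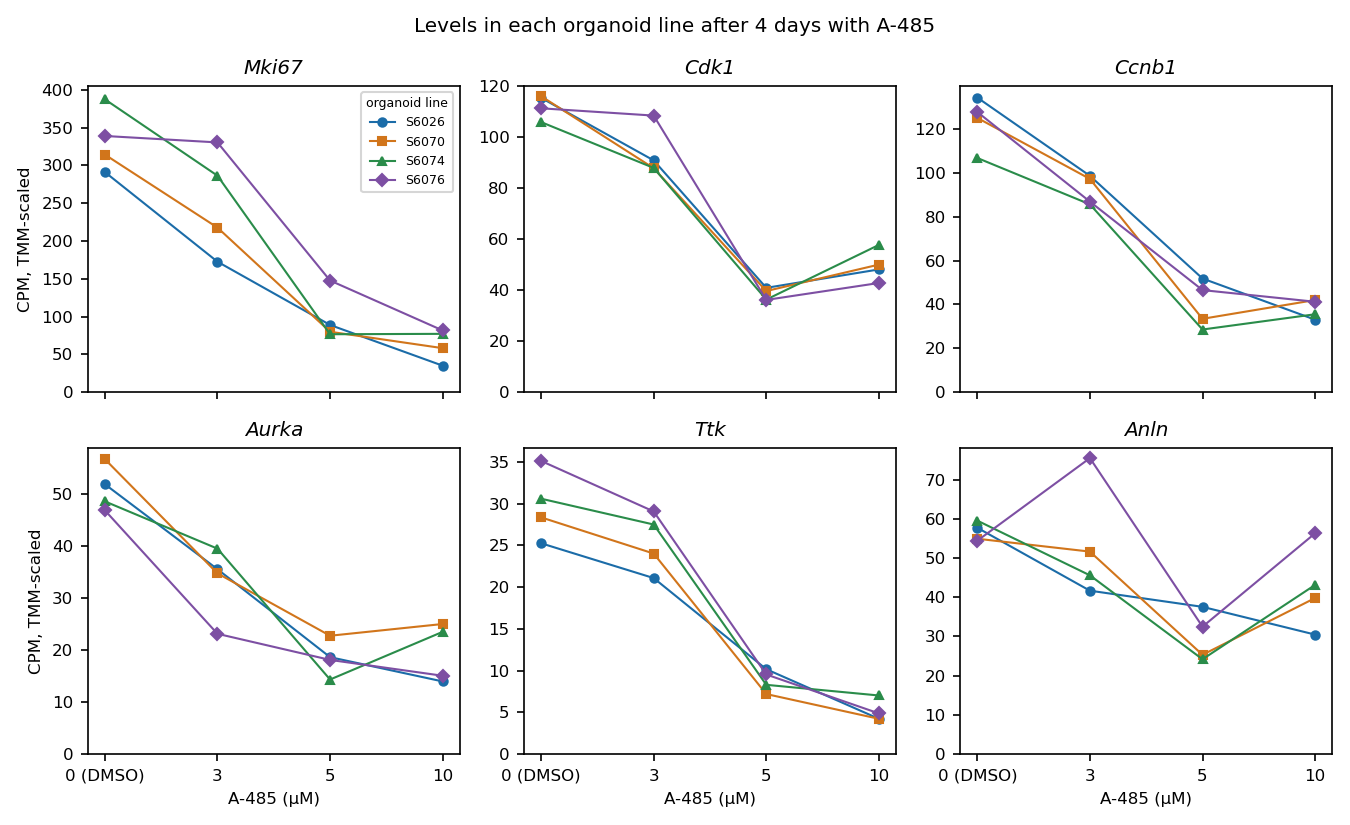
CPM of mitosis genes against A-485 dose in µM; each line joins the libraries of 1 organoid line at DMSO and the 3 doses, and the vertical axis is TMM-scaled CPM from 0. Mki67 is 291 to 388 CPM with DMSO and 34.9 to 81.6 at 10 µM, Cdk1 is higher at 10 than at 5 µM, and Anln at 10 µM overlaps with DMSO.

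**Figure D5:**
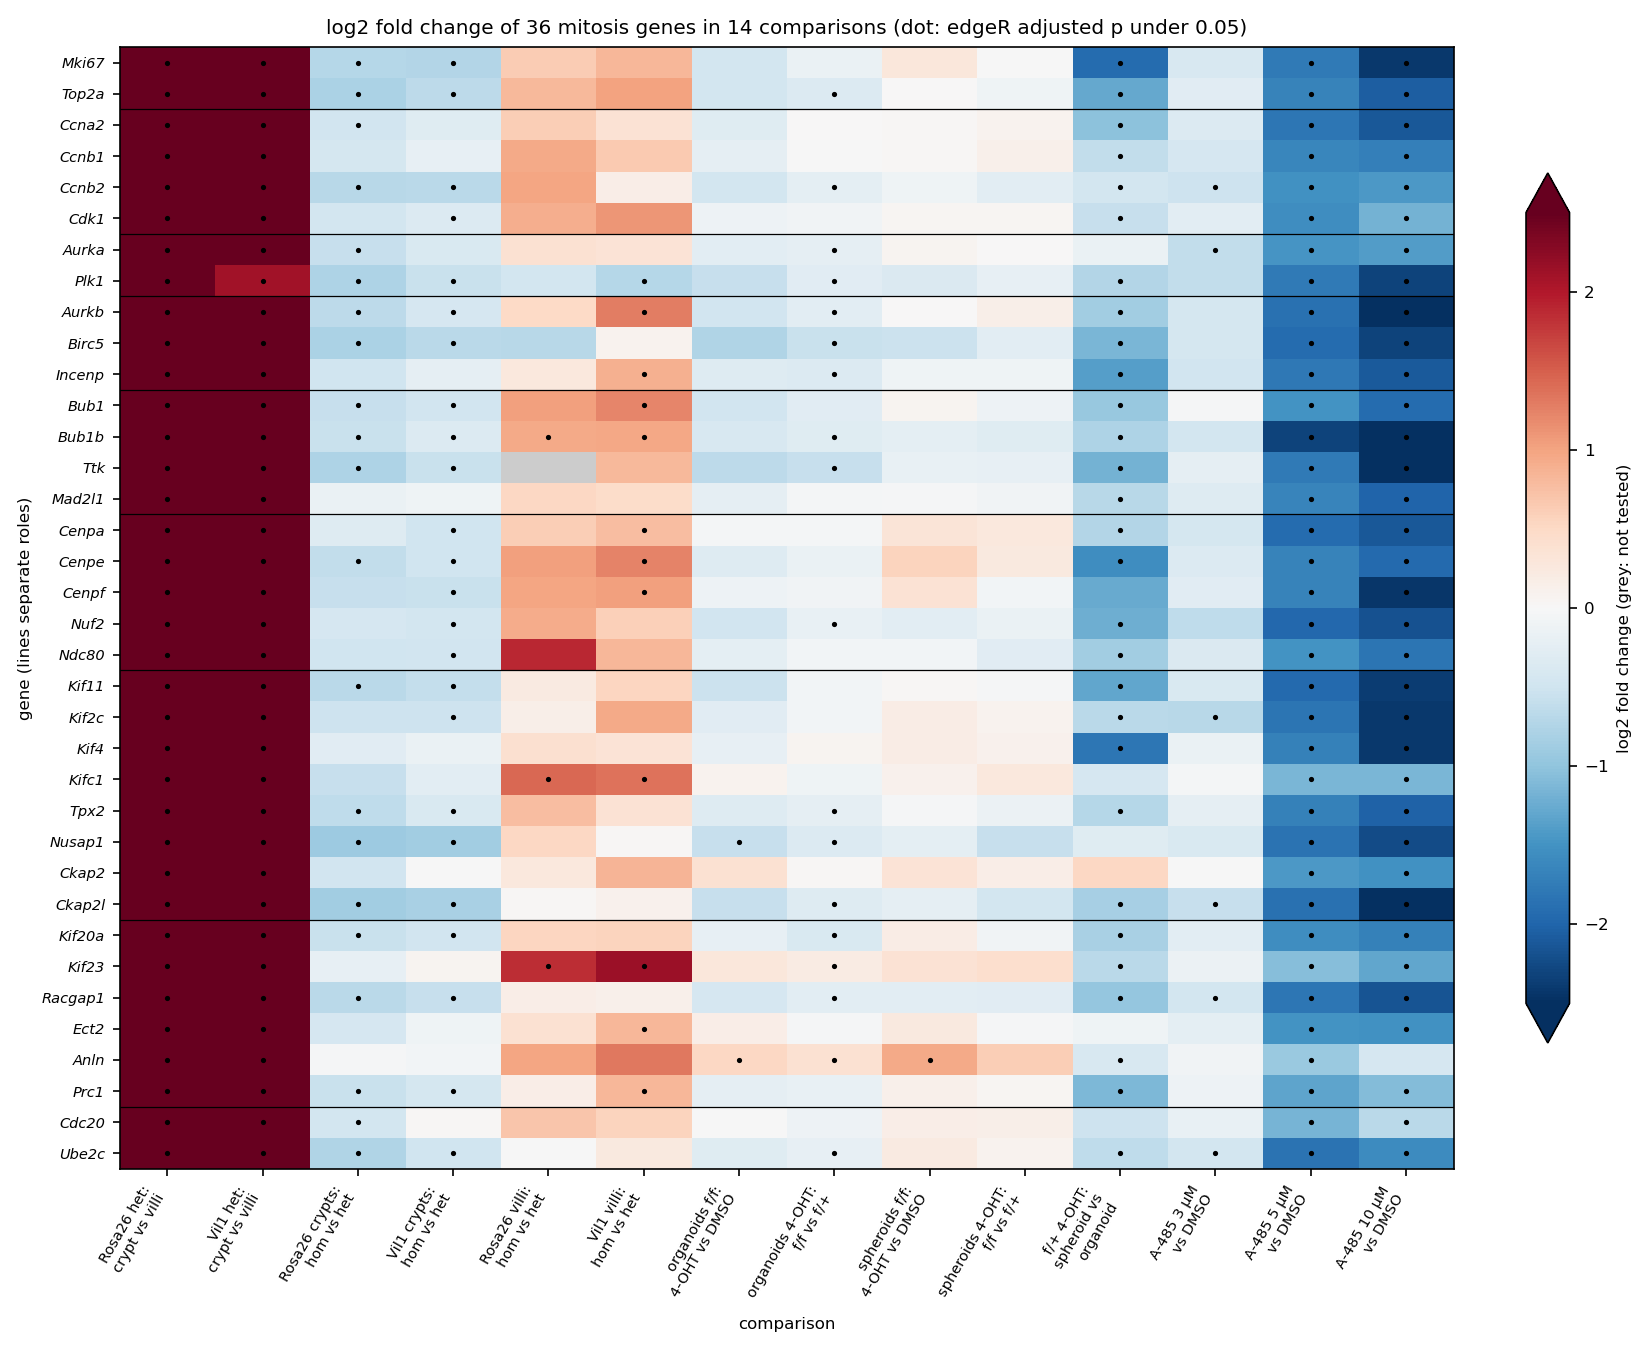
Log2 fold changes of the 36 mitosis genes (rows) in 14 comparisons (columns), with colour for the size and direction, dots for called changes and grey for a gene not tested. Columns of the deletion in crypts are below 0 for nearly all genes, villus columns mostly above 0, and the 5 and 10 µM A-485 columns are the lowest.

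Changes of genes with and without the CHR letters are given as a description, with no test. At 5 µM A-485 the 25 genes with TTTGAA or TTCGAA had a median log2 fold change of −1.66 (−2.32 to −0.92) and the 6 without −1.76 (−1.97 to −1.62). At 10 µM the medians were −1.93 and −2.09, in Rosa26 crypts −0.57 and −0.52, and in Vil1 crypts −0.49 and −0.48. Between flox/+ crypts and villi of Rosa26 mice they were 4.58 and 4.97.

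Other genes of the cell cycle were read from lists. Of 60 other mitosis genes 25 were called lower and none higher in Rosa26 crypts (all genes 11.6% and 8.63%), and 24 lower and 3 higher in Vil1 crypts (17.7% and 11.6%). In villi 3 of 55 were called lower and 5 higher with Rosa26 (18.2% and 15%), and 3 of 59 lower and 20 higher with Vil1 (21.6% and 20.9%). In the first organoid set 8 were called lower and 1 higher (17.2% and 18.2%), and in the second, against flox/+, 21 and 1 (24.3% and 22.6%). With A-485, 7 were called lower at 3 µM (8.42%), 55 at 5 µM (25.1%) and 55 at 10 µM (32.6%), and none higher.

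Of 40 DNA replication genes 7 were called lower in Rosa26 crypts and none higher, and 6 lower and 1 higher in Vil1 crypts, which are 17.5% and 15% lower beside 11.6% and 17.7% of all genes. In Rosa26 villi 3 of 38 were called lower and 4 higher (all genes 18.2% and 15%). In Vil1 villi 1 of 40 was called lower and 8 higher (all genes 21.6% and 20.9%). None was called higher in the organoid sets or with A-485. In the first organoid set 6 were called lower (15%, beside 17.2%) and in the second, against flox/+, 30 (75%, beside 24.3%). With A-485, 8 were called lower at 3 µM (20%, beside 8.42%), 38 at 5 µM (95%, beside 25.1%) and 39 at 10 µM (97.5%, beside 32.6%). Of 15 regulators of G1, 8 were called higher and 3 lower in Vil1 crypts (all genes 11.6% and 17.7%). At 3, 5 and 10 µM A-485, 4, 4 and 5 were called higher (10.8%, 24.4% and 29.4%). At these doses 0, 5 and 7 were called lower (8.42%, 25.1% and 32.6%). Cdkn2a had the largest called rise of the list in Vil1 crypts, Vil1 villi, the first organoid set and at all 3 doses. The highest values in the list were 9.63 in Vil1 crypts and 3.89, 4.72 and 4.52 at the doses. Control levels and standard errors for these values are not given here. Where a control level is near 0, the size of a log2 fold change is poorly determined. In Vil1 crypts all 15 genes passed the filter, against 14 between flox/+ crypts and villi of Vil1 mice.

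Cit, citron kinase of the cleavage furrow, fell in both crypts (−1.15 ± 0.18 and −1.27 ± 0.13, edgeR adjusted p = 0.00294 and 0.000444). Gtse1, a microtubule-associated regulator of p53, rose in Vil1 crypts (1.06 ± 0.12, edgeR adjusted p = 0.000607), Vil1 villi (2.81 ± 0.45) and the first organoid set (1.00 ± 0.17). Foxm1 fell in Rosa26 crypts (−0.50 ± 0.14, edgeR adjusted p = 0.0335) and at 5 µM and 10 µM A-485 (−1.50 and −1.56), and rose in Vil1 villi (1.13 ± 0.37). Mybl2 rose in Vil1 crypts (0.65 ± 0.11, edgeR adjusted p = 0.00323) and in villi of both drivers (1.81 and 1.50), and fell at 5 µM and 10 µM A-485 (−2.44 and −2.55). Cdkn1a, the inhibitor p21, rose in Vil1 crypts (1.36 ± 0.19, edgeR adjusted p = 0.00214) and at 5 µM and 10 µM A-485 (1.15 and 1.08), and was 0.47 ± 0.28 in Rosa26 crypts (edgeR adjusted p = 0.246). Ccnd1, cyclin D1, rose in Vil1 crypts (1.01 ± 0.14), the first organoid set (1.17 ± 0.19) and at all doses of A-485 (1.24, 1.77 and 1.84), each at an edgeR adjusted p of 0.00344 or below, and was −0.01 ± 0.12 in Rosa26 crypts.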

How the data were processed

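RNA was sequenced with polyA-selected, directional libraries, per the labels' protocols. The authors deposited counts of reads per gene in 4 tables, with gene lengths that the authors deposited in the same tables. Reads were aligned with HISAT2 2.0.5 to GRCm38 (mm10), per the submitters' processing notes; the counting tool, annotation and strand setting are not given in the sources used here, so reads of overlapping genes may be shared. Samples were grouped by the labels; cultures in another medium were not analysed here. The members and lists were chosen with earlier results of these data known.

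Genes were filtered by group (filterByExpr), scaled by TMM and tested with edgeR 4.0.16 (quasi-likelihood, robust) in R 4.3.3, with Benjamini-Hochberg adjustment over all tested genes. Fits used the compared groups, or all groups of a set for the second organoid set, spheroids, A-485 and interactions. CPM levels are scaled within a set, and CPM per kb is used between genes. For most comparisons the called members with the largest and smallest changes are given, by library or as a range. Levels or log2 fold changes of Mki67, Cdk1 and Ccnb1 are given in the main ones, and members called against the rest are named. Alternatives were DESeq2 1.42.0, other scaling and filters, leaving out libraries, and a replicate block; no duplicated libraries were found. DMSO and 4-OHT or A-485 libraries are paired by line, and most crypts and villi by animal. Rosa26 flox/flox villus replicate 2 and Vil1 flox/flox villus replicates 3, 5 and 6 had no crypt library. Deviations of same-line libraries correlated at 0.318 to 0.501 in the first organoid set. On simulated data, 37% of 200 genes changed by a log2 fold of 1 were recovered for Rosa26 crypts (15846 genes) and 55% for 5 µM A-485 (13724 genes).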

Additional observations from a re-analysis of the deposited data

Results flagged for a closer look

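A library far from the rest of its group was looked for in 4 measures (the summed CPM of the mitosis genes, Mki67, Cdk1 and Ccnb1) in each of the 18 groups with 4 to 6 libraries. Of these 72 checks, 7 found one, in 6 groups; chance gives about 1 in 20 for each check, and the 4 measures are not independent. The summed CPM of the mitosis genes was 188 in Rosa26 flox/+ villi replicate 3, against 51.3 to 84.2 in the other 4, and Cdk1 was 3.88 CPM there against 0.534 to 1.18. The sum was 145 in Vil1 flox/+ villi replicate 4, against 246 to 258. Ccnb1 was 67.0 CPM in Rosa26 flox/+ crypt replicate 5, against 60.4 to 61.6. Mki67 was 344 CPM in flox/+ spheroids with 4-OHT replicate 5, against 36 to 108, and Cdk1 was 115 CPM in flox/flox spheroids with 4-OHT replicate 5, against 55.4 to 73.2. Cdk1 was 108 CPM in the fourth line at 3 µM A-485, against 87.8 to 90.9.

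The effect of the deletion differed between crypts and villi, by the interaction test, for 8 mitosis genes in Rosa26 mice and 12 in Vil1 mice, all with a lower effect in crypts, against 6.68% and 9.38% of all genes in that direction. With the animal as a block the counts were 2 and 21, and without 1 library they ran from 5 to 30 and from 1 to 24.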

How the results depend on the processing

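Of the alternatives, 314 kept the count of called mitosis genes within 1.5 times and 70 did not. The share of all genes called is not given for most of these fits. The lowest and highest counts without 1 library were 9 and 27 in Rosa26 crypts, 1 and 19 in Rosa26 villi, 11 and 27 in Vil1 crypts, 1 and 20 in Vil1 villi, 0 and 32 in the first organoid set, 12 and 20 in the second against flox/+, 9 and 14 against CreER only, 1 and 2 in flox/flox spheroids, 0 and 1 between spheroid genotypes with 4-OHT, 28 and 32 between spheroids and organoids, 2 and 9 at 3 µM A-485, 35 and 36 at 10 µM, 34 and 36 from 3 to 5 µM, 4 and 7 from 5 to 10 µM, 5 and 30 in the Rosa26 interaction and 1 and 24 in the Vil1 interaction. In Rosa26 villi 1 was called without flox/+ replicate 1, 2, 4 or 5 or flox/flox replicate 2 or 3, and 5 without flox/flox replicate 5.

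Without TMM the counts were 13 in Rosa26 crypts, 1 at 3 µM and 19 in the Vil1 interaction; the median of all genes then moved by over 0.1 in 9 comparisons. DESeq2 gave 8 in organoid set 1, 5 in Rosa26 villi and 11 at 3 µM. With only the compared groups, counts were 12 at 3 µM and 2 from 5 to 10 µM; with only the 3 flox/flox lines, 0 and 2, both of them higher. Keeping genes with at least 1 read gave 5 in the Vil1 interaction. Y-linked reads as a covariate gave 34 in Rosa26 crypts.

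With a replicate block, counts were 8 in Rosa26 villi (numbers not paired), 8 in organoid set 1, 4 in flox/flox spheroids, 11 at 3 µM, 10 from 5 to 10 µM, 2 and 21 in the Rosa26 and Vil1 interactions and 1 in the spheroid interaction. It moved no other count past 1.5 times: 18 in Rosa26 crypts, 16 in Vil1 crypts, 10 in Vil1 villi, 15 and 9 in the second organoid set, 32 between spheroids and organoids and 36 at 10 µM. In flox/flox spheroids the block fit called 42.7% of all genes.

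Choices made after seeing the data gave 4 in Rosa26 crypts without the 2 libraries highest in immune markers, 32 in the first organoid set without line S2080, and 2 in flox/flox spheroids in a fit to that genotype with a line block. The last fit called 34.6% of all genes. In flox/+ spheroids that fit called 0 and was the only one of the 3 models that called Eif4g2; counts of 0 there are limited by the spread between lines. Leaving out the 4 spheroid lines highest in stem and Paneth markers left the spheroid counts at 1 and 0.

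Signs turned for Ccnd1 in Rosa26 crypts (0.015 with genes of at least 1 read; −0.06515 to 0.051 without 1 library), Mybl2 there (−0.0028 with the Y covariate), Foxm1 in the first organoid set (0.020 without TMM; −0.283 to 0.076 without 1 library), Cdkn1a at 3 µM (−0.046 with flox/flox lines; −0.034 to 0.341 without 1 library) and the spheroid median with DMSO (−0.43 with lines of shared name prefix). The share of promoters with CHR letters was 41.94% before the start alone. The cause of these differences was not tested.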
